A study of Homo sapiens with 16 samples.

Results

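The comparison set shEVI1-2532 against shEVI1-2531, a pair of short hairpin RNAs that target *EVI1*, in MUTZ-3 cells on day 3 and day 6. The members were taken from the sample labels and comprise 4 libraries, 1 for each hairpin and day, out of 16 in the series. MUTZ-3 is an acute myeloid leukemia (AML) line with an inv(3) rearrangement. It was grown with serum, GM-CSF and medium conditioned by a bladder carcinoma line. The cells of all knockdown groups were transduced with the lentiviral vector pLKO.1 and selected with puromycin. The vector carried TRCN0000002532 in the shEVI1-2532 group, TRCN0000002531 in the shEVI1-2531 group and SHC002, a non-targeting control, in the NTC group, which also has 1 library a day. For shEVI1-2531 the number in the file name differs from that in the sample label, so its identity rests on the label. The remaining 10 libraries came from MUTZ-3 cells that were untreated or given DMSO, olaparib or talazoparib.

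*EVI1* is a zinc finger transcription factor made from the *MECOM* locus and is active in hematopoietic stem cells. In AML with inv(3) an enhancer of *GATA2* is moved next to it and keeps its expression high, which holds the cells in an immature state. A hairpin is processed into a small RNA that degrades its target mRNA, and hairpins against 1 gene differ both in how far they lower the target and in which other transcripts they touch. The comparison asks which genes differed between the hairpins on both days, which of them followed how far *MECOM* had fallen, and which lay on opposite sides of NTC.

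RNA was measured as counts per gene, which were scaled to CPM, a read count relative to the total of its library. The 4 libraries held 95523038 to 114271048 counts and the NTC libraries 109101796 and 120716213, so that 3 counts, taken as the smallest level a library can show, were 0.0263 to 0.0314 CPM in the 4 libraries. Of 60623 genes, 17475 reached 10 counts in 2 or more of the 4 libraries and were tested. A gene was called when its Benjamini-Hochberg adjusted p from the quasi-likelihood test of edgeR, with the day as a block, was under 0.05 and its log2 ratio of shEVI1-2532 to shEVI1-2531 lay beyond 1, in 1 direction, on both days. The test has 1 residual degree of freedom beside 10.3 prior ones, so the error of a gene comes mostly from a spread that edgeR shares over genes. That spread rests on how far the ratios of the days depart from each other, with no replicate of any condition. Mitochondrial transcripts took 4.0% and 4.21% of the counts with shEVI1-2532 on day 3 and day 6, 3.05% and 2.97% with shEVI1-2531 and 2.49% and 3.40% with NTC. This share was highest with shEVI1-2532 on both days and also differed between the NTC libraries. Its part in the results was not tested.

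*MECOM* (ENSG00000085276; GRCh38, chr3:169083499-169663775, minus strand) fell further with shEVI1-2532 on both days. Its level was 41.1 CPM with NTC, 13.1 CPM with shEVI1-2531 and 5.10 CPM with shEVI1-2532 on day 3. On day 6 the same libraries held 37.8, 17.4 and 4.27 CPM. Thus 32.0% and 46.0% of the NTC level remained with shEVI1-2531 and 12.4% and 11.3% with shEVI1-2532, and the gap between the hairpins was wider on day 6. The log2 ratio of shEVI1-2532 to shEVI1-2531 was -1.36 on day 3 (95% counting interval -1.52 to -1.21) and -2.02 on day 6 (-2.18 to -1.87). The fitted log2 fold change was -1.71 (SE 0.20, Benjamini-Hochberg adjusted p = 1.17e-04 from the quasi-likelihood test of edgeR). The tested genes on both sides of *MECOM*, *GOLIM4* and the lowly expressed *AC007849.2*, differed by 0.15 (SE 0.19) and 0.09 (SE 0.47) and were not called, with adjusted p of 0.597 and 0.911 in the edgeR test. Since each depth of *MECOM* loss comes from 1 hairpin, the depth of the loss and the other properties of a hairpin cannot be told apart in any result that follows.

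**Figure D1:**
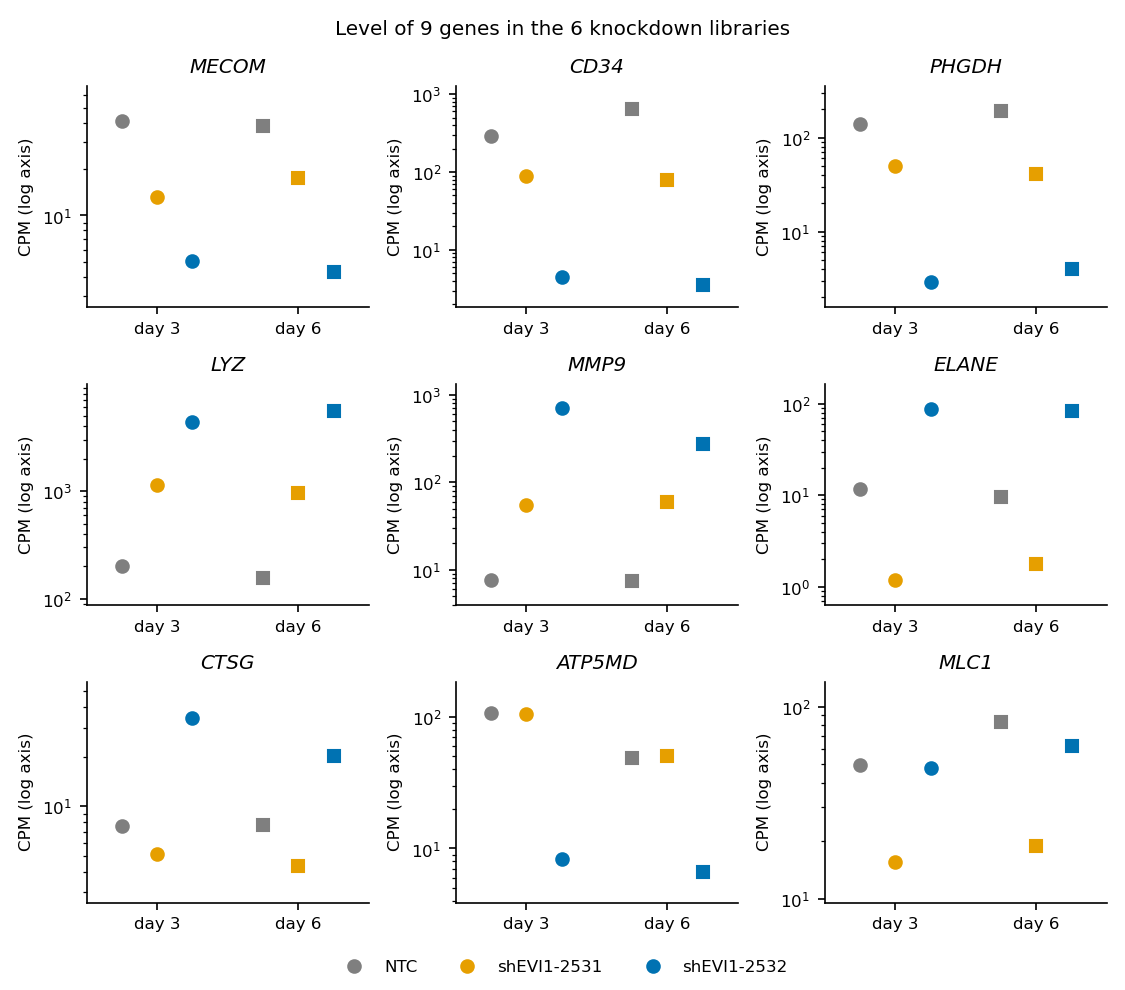
Level of 9 genes in CPM on a log axis, 1 point per library, with circles for day 3 and squares for day 6 and the colour giving NTC, shEVI1-2531 or shEVI1-2532. MECOM, CD34 and PHGDH step down and LYZ and MMP9 step up from NTC over shEVI1-2531 to shEVI1-2532, ELANE and CTSG lie below NTC with shEVI1-2531 and above it with shEVI1-2532, ATP5MD lies below NTC with shEVI1-2532 alone and MLC1 with shEVI1-2531 alone.

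Between the hairpins, 741 genes were higher and 702 lower with shEVI1-2532, which is 4.24% and 4.02% of the genes tested. At the adjusted p alone, 2531 genes were higher and 2573 lower. Scaling by library totals in place of TMM moved the median of all genes from 0.01 to -0.10 and the called genes to 536 higher and 887 lower, so the balance of higher and lower genes depends on the scaling. Of the called genes, 408 had a mean log2 CPM above 3 in the 4 libraries, as 8653 of all tested genes did. At the edge of the rule, *LTA4H* (1.0013 on day 3 and 1.41 on day 6) and *NME4* (-1.13 and -1.0027) lay just inside and *TKT* (0.994 and 1.46) and *ARL6IP6* (-1.38 and -0.998) just outside. A further 75 tested genes had log2 ratios beyond 1 with opposite signs on the days and were not called.

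**Figure D2:**
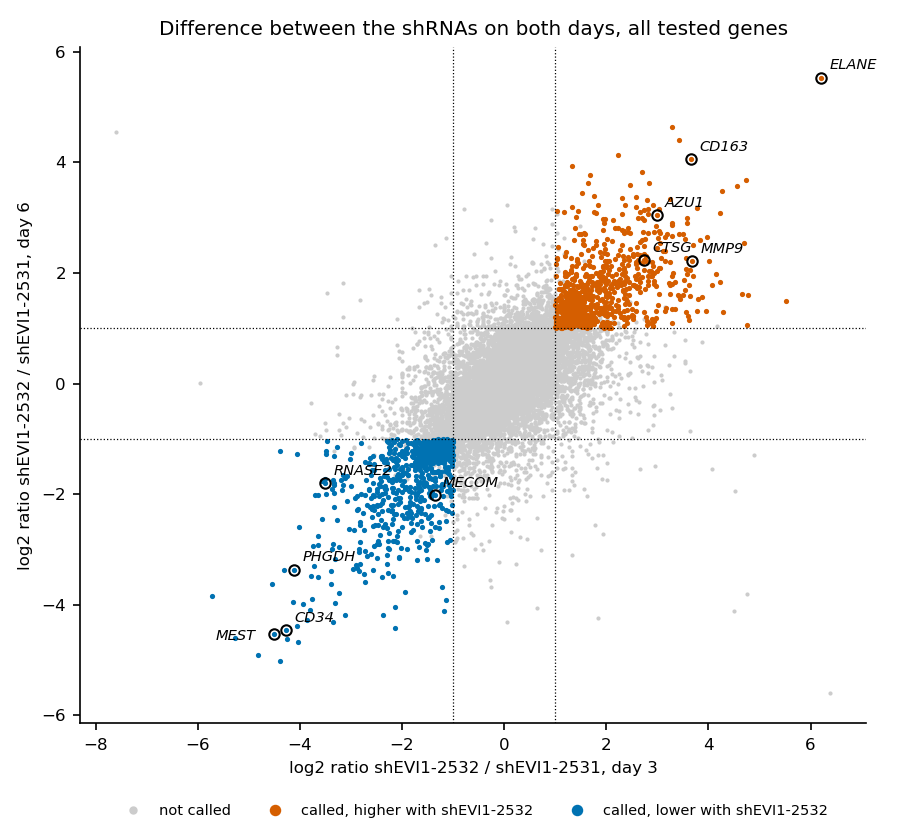
Log2 ratio of shEVI1-2532 to shEVI1-2531 on day 3 (x axis) and day 6 (y axis) for the 17475 tested genes, 1 point per gene, with dotted lines at 1 and -1. The 741 genes called higher fill the upper right corner, where ELANE lies furthest out, and the 702 called lower the lower left, with CD34 and MEST far out and MECOM near the border.

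Each called gene was then placed by its log2 ratios to the NTC library of the same day, with 0.5 as the border on both days. Both hairpins are set against the same NTC library, so their ratios share its error. On both days 316 called genes lay on the same side of NTC with both hairpins and further from it with shEVI1-2532, as *MECOM* itself did, and these are called graded here. A further 365 lay away from NTC with shEVI1-2532 alone, 37 with shEVI1-2531 alone, and 9 on the same side but further with shEVI1-2531. Opposite sides of NTC on both days were found for 95 genes, and 621 fell into different groups on the days, among them 269 that moved only between graded and shEVI1-2532 alone and 298 that were opposite on 1 of the days. With counting error taken into account, the 95% intervals of all 4 ratios to NTC excluded 0 for 276 of the 316 graded and for 38 of the 95 opposite genes. These same ratios, beyond 0.5, placed the genes, so these numbers describe the depth of counting and are no test of the groups. The opposite genes were mostly scarce transcripts, and 7 of them had a mean log2 CPM above 3, against 98 of the graded genes.

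**Figure D3:**
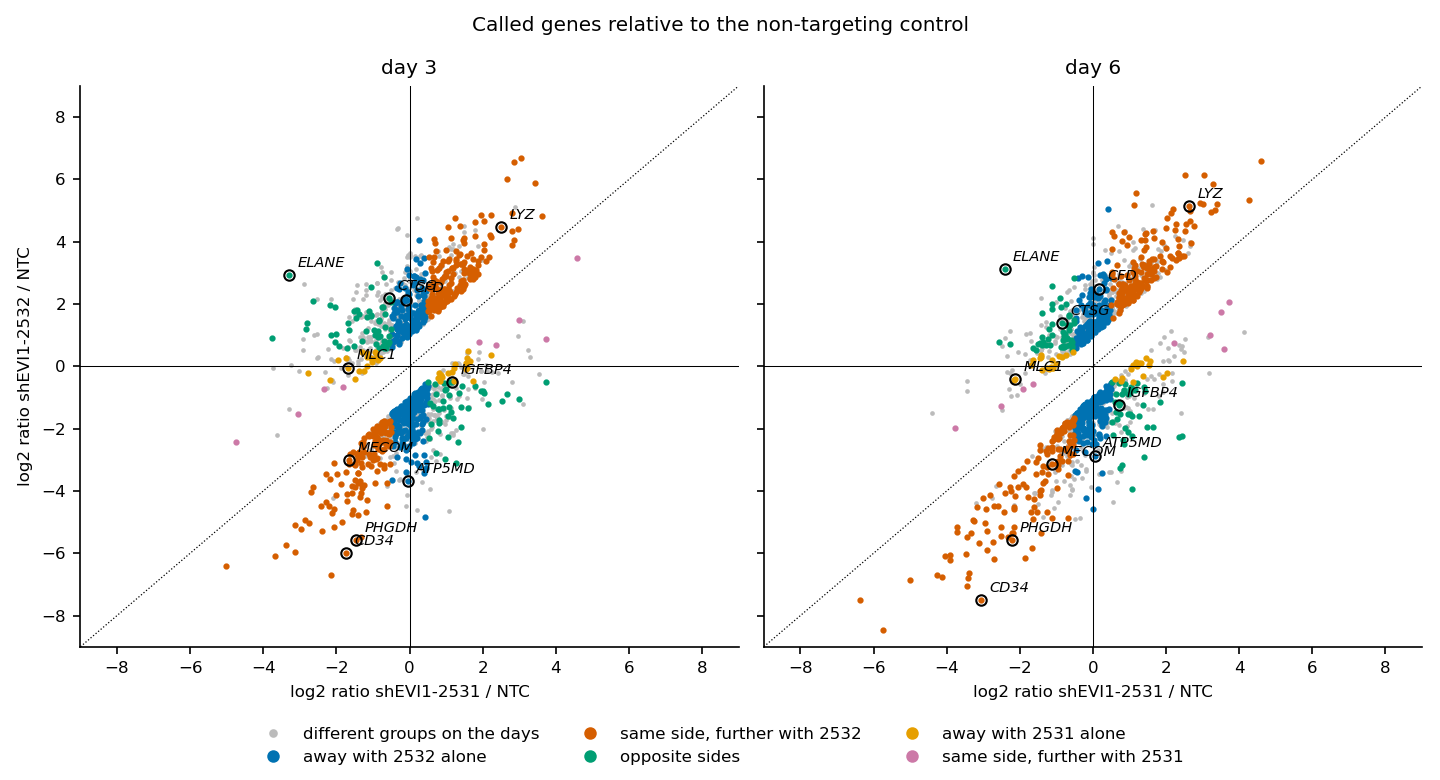
Log2 ratio to NTC with shEVI1-2531 (x axis) and with shEVI1-2532 (y axis) for the 1443 called genes on day 3 (left) and day 6 (right), with the group as colour and a dotted line where both hairpins are equal. Graded genes lie between the vertical axis and the line, from CD34 at the lower left to LYZ at the upper right, ELANE stands alone at the upper left, and ATP5MD, MLC1 and IGFBP4 lie near or across an axis.

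Among the graded genes, 138 were lower with shEVI1-2532, with *CD34*, *PHGDH*, *FADS2*, *RAB27B* and *ANGPT1* in front. *CD34*, the surface sialomucin that marks stem and progenitor cells, stood at 88.0 and 78.7 CPM with shEVI1-2531 and at 4.54 and 3.57 CPM with shEVI1-2532, against 293 and 654 CPM with NTC, on day 3 and day 6. Both shEVI1-2532 libraries lay more than an order of magnitude below those of shEVI1-2531, with log2 ratios of -4.27 and -4.45 (fitted -4.38, SE 0.17, adjusted p = 9.41e-08 in the edgeR test). In bulk RNA, fewer cells of a type and less RNA per cell cannot be told apart. *MYCN*, a transcription factor of the *MYC* family, was 23.0 and 48.9 CPM with NTC, 5.16 and 4.51 CPM with shEVI1-2531 and 0.203 and 0.348 CPM with shEVI1-2532. *ANGPT1*, which encodes a ligand of the TIE2 receptor, was 39.5 and 26.9 CPM with shEVI1-2531 and 7.62 and 1.47 CPM with shEVI1-2532, and the distance between the hairpins widened from -2.37 to -4.18. *HLF*, a transcription factor of stem cell self-renewal, was scarce in all 4 libraries, at 0.449 and 0.239 CPM with shEVI1-2531 and 0.0789 and 0.0211 CPM with shEVI1-2532, the last under the level of 3 counts. On a list of 30 tested genes tied to *EVI1* and stem cells, 11 (36.7%) were lower and 1 (3.33%) higher with shEVI1-2532. These shares were 4.02% and 4.24% for all tested genes. The median fold change was -0.52 on the log2 scale, against 0.01 for all tested genes, and 8 of the 11 were graded.

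*PHGDH*, an enzyme of serine synthesis, and enzymes that build polyunsaturated fatty acids were among the graded genes. *PHGDH*, the first enzyme of serine synthesis from glucose, was 139 and 191 CPM with NTC, 50.3 and 41.1 CPM with shEVI1-2531 and 2.90 and 3.97 CPM with shEVI1-2532. The hairpins differed by -4.11 and -3.37 on the log2 scale (fitted -3.75, SE 0.20, adjusted p = 1.51e-06 in the edgeR test). *FADS2*, the delta-6 desaturase, was 43.0 and 42.9 CPM with shEVI1-2531 and 4.15 and 5.40 CPM with shEVI1-2532, and its neighbour *FADS1*, the delta-5 desaturase, was 7.10 and 6.33 CPM and 3.46 and 2.69 CPM. Both lay below NTC with either hairpin, and *FADS2* showed the larger log2 ratio between them. *RAB27B*, a small GTPase of vesicle secretion, followed the same order, at 105 and 83.2 CPM with NTC, 35.1 and 27.3 CPM with shEVI1-2531 and 6.26 and 3.66 CPM with shEVI1-2532. Of 13 tested genes of serine synthesis and one-carbon metabolism, *PHGDH* and *MTHFD1* were lower and *SLC1A4* higher, with a median of -0.46. These shares were 15.4% and 7.69%, against 4.02% and 4.24% of all tested genes, and *PHGDH* was the 1 graded member. *PSAT1*, also on this list, had at most 1 count in a knockdown library and was not tested. Of 17 tested fatty acid genes, *FADS1*, *FADS2* and *ELOVL6* were lower (17.6%, against 4.02% of all tested genes) and *ACSL1* higher (5.88%, against 4.24%), with a median of -0.12.

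The other 178 graded genes were higher with shEVI1-2532, with *LILRB3*, *LRP1*, *SPARC*, *MMP9* and *ORM1* in front. *LYZ*, a monocyte gene that also belongs here and that encodes lysozyme, was 199.8 and 157 CPM with NTC, 1141 and 967 CPM with shEVI1-2531 and 4426 and 5548 CPM with shEVI1-2532. *MMP9*, the gelatinase of neutrophil granules, was 55.2 and 59.6 CPM with shEVI1-2531 and 711 and 277 CPM with shEVI1-2532, so its distance between the hairpins was larger on day 3 (3.69) than on day 6 (2.22). *LRP1*, an endocytic receptor, was 7.66 and 10.3 CPM with shEVI1-2531 and 42.3 and 56.2 CPM with shEVI1-2532, and its log2 ratio was 2.46 and 2.44. All of these were also above NTC with shEVI1-2531 on both days. *SPARC*, a matricellular protein, *ORM1*, an acute phase glycoprotein, and *LILRB3*, an inhibitory receptor of myeloid cells, were the other leading genes, with fitted log2 fold changes of 2.76 (SE 0.20), 2.49 (SE 0.19) and 2.71 (SE 0.18) and adjusted p of 8.17e-06, 9.71e-06 and 6.07e-06 in the edgeR test.

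Among the 30 monocyte genes tested, 14 (46.7%) were higher and 0 lower with shEVI1-2532, 11 of them graded, and the median was 1.04. Over all tested genes 4.24% were called higher and 4.02% lower. The scavenger receptor *CD163* rose from 0.135 and 0.107 CPM with shEVI1-2531 to 1.91 and 2.08 CPM with shEVI1-2532 (log2 ratios 3.65 and 4.06). The high-affinity IgG receptor *FCGR1A* was 17.5 and 18.0 CPM and 105 and 80.8 CPM, while NTC held 18.4 and 11.3 CPM, so shEVI1-2531 stayed close to NTC for this gene on day 3. Receptors of the C-type lectin, Siglec and LILR families gave 7 higher (25.9%) and 1 lower (3.70%) of 27, with a median of 0.76. *LILRB3* and *LILRA6* were in front. LILR genes resemble one another closely, so reads may be shared among them. Secondary and tertiary granule genes gave 6 higher (42.9%) and 1 lower (7.14%) of 14. The higher ones were led by *MMP9*, *ORM1* and *SLPI*, a protease inhibitor at 27.9 and 29.1 CPM with shEVI1-2531 and 149 and 129.5 CPM with shEVI1-2532. The exception, *CRISP3*, was found at 0.438 and 0.395 CPM with shEVI1-2531 and at 0.0451 and 0.0316 CPM, near the smallest level a library can show, with shEVI1-2532. By the rule it was 1 of the 9 genes further from NTC with shEVI1-2531. It had 2 counts in each NTC library and 4 and 3 with shEVI1-2532, so its side of NTC with shEVI1-2532 is uncertain. *CCL24*, an eotaxin, was in the same group, at 4.88 and 12.5 CPM with shEVI1-2531 against 2.21 and 3.68 CPM with shEVI1-2532. Of 35 lysosomal genes 34 had fold changes above 0, with a median of 0.62. The 2 called, among them the lipase *LIPA*, were a share of 5.71%, near the 4.24% of all tested genes called higher.

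The course of the graded genes over the days was set beside that of *MECOM*. With shEVI1-2531, the ratio of *MECOM* to NTC went from -1.64 on day 3 to -1.12 on day 6, closer to NTC. In size, the same ratio was smaller on day 6 for 65 of the 178 higher and 44 of the 138 lower graded genes, and larger or equal for the others. *CD34* went from -1.74 to -3.06, further from NTC, while its level with shEVI1-2531 changed little and its NTC level rose. Over the 138 lower graded genes the median change from day 3 to day 6 was 0.33 with NTC, -0.13 with shEVI1-2531 and -0.16 with shEVI1-2532 on the log2 scale. The ratio to NTC with shEVI1-2531 was 0.55 of that with shEVI1-2532 on day 3 and 0.36 on day 6 for *MECOM*. Medians for the graded genes were 0.40 and 0.44 among the higher and 0.39 and 0.42 among the lower ones. With 1 library for each hairpin and day, a change of the hairpin difference with the day could not be tested.

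Among proliferation genes, calls were made in the lower direction alone. Of 54 G2/M genes 20 (37.0%) were called lower, against 4.02% of all tested genes, and 53 had a fold change below 0, with a median of -0.94. *PIMREG*, a mitotic regulator, was 19.3 and 18.8 CPM with NTC, 15.1 and 13.7 CPM with shEVI1-2531 and 2.55 and 2.92 CPM with shEVI1-2532. *HMMR*, a spindle-associated hyaluronan receptor, was 48.5 and 23.5, 17.3 and 12.5, and 3.81 and 3.18 CPM in the same order. With shEVI1-2531, *HMMR* thus lay further below NTC than *PIMREG*, and 7 of the 20 genes were graded and 8 lower with shEVI1-2532 alone. *CENPA*, the histone variant of centromeres, and *KIF23*, a kinesin of cytokinesis, had fitted log2 fold changes of -1.56 (SE 0.16) and -1.39 (SE 0.15). Of 43 S phase genes 3 (6.98%) were called lower (*DSCC1*, *CDC45* and *CDCA7*), and all 43 had fold changes below 0, with a median of -0.70.

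Genes on opposite sides of NTC had *ELANE*, the gene of neutrophil elastase, far in front. *ELANE* was 11.7 and 9.55 CPM with NTC, 1.18 and 1.78 CPM with shEVI1-2531 and 88.8 and 83.0 CPM with shEVI1-2532. The log2 ratio between the hairpins was 6.21 and 5.53 (fitted 5.86, SE 0.21, adjusted p = 9.33e-08 in the edgeR test), with shEVI1-2531 at -3.29 and -2.41 and shEVI1-2532 at 2.92 and 3.12 relative to NTC. *CTSG*, another serine protease of the same granules, was 7.58 and 7.74 CPM with NTC, 5.14 and 4.31 CPM with shEVI1-2531 and 34.4 and 20.2 CPM with shEVI1-2532. *S100A6*, a calcium-binding protein, was 8.33 and 4.96 CPM with shEVI1-2531, below the NTC levels of 13.4 and 8.17 CPM, and 31.8 and 20.3 CPM with shEVI1-2532, above them. The class II chain *HLA-DQA1* and the neutral amino acid transporter *SLC1A4* also lay on opposite sides, at -1.05 and -0.83 and at -0.83 and -0.79 relative to NTC with shEVI1-2531, and at 1.65 and 1.10 and 0.60 and 0.61 with shEVI1-2532. HLA genes are polymorphic and resemble one another, so their counts are uncertain. In the reverse order, 43 genes were above NTC with shEVI1-2531 and below it with shEVI1-2532, and *IGFBP4*, which encodes a binding protein of insulin-like growth factors, was the sole one of them with a mean log2 CPM above 3. It was 34.3 and 53.1 CPM with NTC, 76.9 and 86.6 CPM with shEVI1-2531 and 24.1 and 22.4 CPM with shEVI1-2532, and its day 3 ratio of -0.51 lay just past the border of 0.5.

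*ELANE* lies among neighbours that were higher with shEVI1-2532 as well. Along chromosome 19, *AZU1* (azurocidin), *PRTN3* (proteinase 3), *ELANE* and *CFD* (complement factor D) follow one another on the plus strand within chr19:825097-863641 (GRCh38), and all were called higher. *AZU1* was 135 and 120.3 CPM with NTC, 85.2 and 120.0 CPM with shEVI1-2531 and 676 and 992 CPM with shEVI1-2532. *PRTN3* was 63.3 and 62.3, 73.1 and 113, and 461 and 669.7 CPM, and *CFD* 128 and 142, 119.9 and 159, and 560.0 and 799 CPM in the same order. With shEVI1-2532 all 4 stood above NTC, by 2.13 to 3.43 on the log2 scale, whereas with shEVI1-2531 the neighbours of *ELANE* lay between -0.66 and 0.86 and *ELANE* at -3.29 and -2.41. *PLPPR3*, the next gene before *AZU1*, was called higher too, at a low level, and *PTBP1* and *MED16* on the outer flanks were not called.

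**Figure D4:**
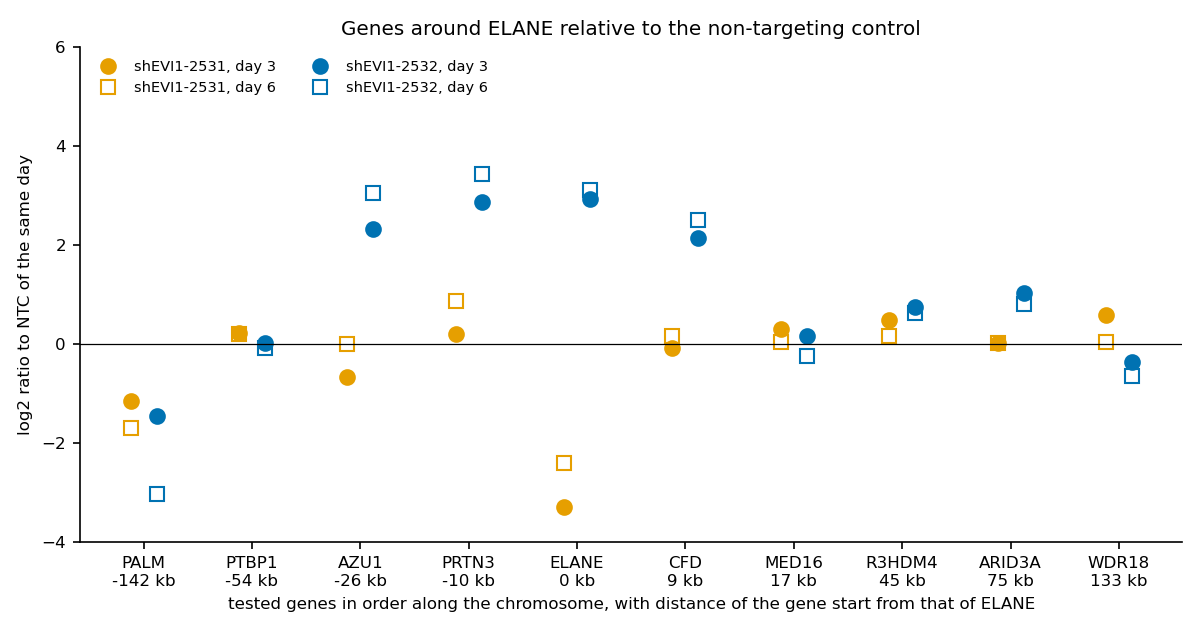
Log2 ratio to NTC of the same day for the 10 tested genes with a mean log2 CPM above 0 whose start lies within 150 kb of that of ELANE, in their order along the chromosome, with circles for day 3 and open squares for day 6. With shEVI1-2532 the run from AZU1 to CFD stands between 2.13 and 3.43, and with shEVI1-2531 ELANE alone of this run lies far below 0.

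The sequences around the starts of granule genes are shown because members of 1 granule list moved apart. Of 13 primary granule genes tested, 7 (53.8%) were higher and 2 (15.4%), *RNASE2* and *RNASE3*, lower. These shares were 4.24% and 4.02% for all tested genes. The list also held *MPO*, the myeloperoxidase gene, at -0.84 and -0.73, which was not called. *RNASE2* encodes the eosinophil-derived neurotoxin and was 127 and 129.6 CPM with shEVI1-2531 and 11.2 and 37.1 CPM with shEVI1-2532. *RNASE3*, which encodes the eosinophil cationic protein and is named here after its values were seen, was 18.4 and 16.3 CPM and 1.59 and 4.91 CPM. Both genes are close copies of each other, so reads may be shared between them. The RefSeq sequences (GRCh38.p14, 300 bases from 250 before to 50 after the start, gene strand, *ELANE* not listed) run over chr19:827587-827886 (*AZU1*), chr19:840749-841048 (*PRTN3*), chr19:859414-859713 (*CFD*), chr14:24576201-24576500 (*CTSG*, minus strand) and chr14:20955237-20955536 (*RNASE2*). Capitals mark matches on either strand to the C/EBP motif TTNNGCAA, the ETS motif GAGGAA, the GATA motif AGATAA or the RUNX motif TGTGGT.
AZU1: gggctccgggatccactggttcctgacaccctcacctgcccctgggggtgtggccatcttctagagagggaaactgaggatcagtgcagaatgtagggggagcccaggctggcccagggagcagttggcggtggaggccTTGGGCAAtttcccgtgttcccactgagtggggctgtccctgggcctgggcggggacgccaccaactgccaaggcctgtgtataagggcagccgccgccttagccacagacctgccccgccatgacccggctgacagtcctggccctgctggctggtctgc
PRTN3: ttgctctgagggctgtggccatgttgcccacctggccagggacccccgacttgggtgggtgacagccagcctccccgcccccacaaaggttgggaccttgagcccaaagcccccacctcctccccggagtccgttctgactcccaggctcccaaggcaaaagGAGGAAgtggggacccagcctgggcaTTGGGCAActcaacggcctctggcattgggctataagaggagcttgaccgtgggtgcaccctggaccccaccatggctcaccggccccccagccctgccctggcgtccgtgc
CFD: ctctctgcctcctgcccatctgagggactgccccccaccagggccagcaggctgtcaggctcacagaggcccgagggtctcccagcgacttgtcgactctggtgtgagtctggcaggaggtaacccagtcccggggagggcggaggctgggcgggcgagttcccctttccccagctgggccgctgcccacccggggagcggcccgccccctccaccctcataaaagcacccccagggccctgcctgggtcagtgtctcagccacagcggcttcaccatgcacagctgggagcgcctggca
CTSG: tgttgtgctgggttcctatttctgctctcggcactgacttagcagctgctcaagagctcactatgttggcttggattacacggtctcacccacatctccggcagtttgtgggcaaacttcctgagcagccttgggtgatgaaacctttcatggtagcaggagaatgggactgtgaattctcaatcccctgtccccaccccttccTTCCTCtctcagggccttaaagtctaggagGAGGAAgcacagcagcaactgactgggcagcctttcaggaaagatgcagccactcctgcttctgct
RNASE2: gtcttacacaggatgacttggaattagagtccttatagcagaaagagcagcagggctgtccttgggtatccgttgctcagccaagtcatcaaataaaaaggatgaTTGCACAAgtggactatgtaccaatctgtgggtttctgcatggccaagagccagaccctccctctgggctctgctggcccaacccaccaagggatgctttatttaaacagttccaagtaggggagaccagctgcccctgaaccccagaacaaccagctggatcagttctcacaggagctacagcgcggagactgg
The C/EBP letters occur once in *AZU1*, once in *PRTN3* and once in *RNASE2* and are in neither the *CFD* nor the *CTSG* window. The ETS letters occur once in *PRTN3* and at 2 places in *CTSG*, and the GATA and RUNX letters in none of the 5 windows. Of 35116 RefSeq windows of this length, 10.5% hold the C/EBP, 27.9% the ETS, 10.3% the GATA and 13.1% the RUNX letters. Genes higher and lower with shEVI1-2532 thus both include a window with the C/EBP letters.

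Of 26 transcription factors of myeloid cells, 0 were called higher and 1 (3.85%) lower, which is near the 4.24% and 4.02% of all tested genes given the length of the list. The lower one was *NR4A1*, an immediate early nuclear receptor, at 2.33 and 7.15 CPM with shEVI1-2531 and 0.868 and 0.991 CPM with shEVI1-2532. *JUN*, named after its values were seen, had the largest fitted log2 fold change of the list (1.75, SE 0.30, adjusted p = 0.00128 in the edgeR test). Its log2 ratios were 2.56 and 0.993, so it lay just outside the rule on day 6. In the list 18 members had fold changes above 0 and 8 below. The median of the list was 0.07 with TMM and -0.05 with library totals. *CEBPA*, *CEBPB* and *SPI1*, named after their values were seen, had log2 ratios between the hairpins of -0.17 and -0.12, of 0.01 and 0.15 and of 0.44 and 0.41 on day 3 and day 6. The fitted difference of *CEBPA*, a main factor of granulocyte development, was -0.16 (SE 0.12, adjusted p = 0.369 in the edgeR test). Relative to NTC, *CEBPA* stood at 1.23 and 0.94 with shEVI1-2531 and at 1.06 and 0.82 with shEVI1-2532.

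The genes away from NTC with shEVI1-2532 alone comprised 141 higher and 224 lower ones. How they divide from the graded genes depends on the border, since a border of 0.25 left 129 of them and gave 449 graded genes. A mean log2 CPM above 3 was found for 166 of the 365. *ATP5MD*, a small subunit of the mitochondrial ATP synthase, was 107 and 48.8 CPM with NTC, 104 and 50.3 CPM with shEVI1-2531 and 8.32 and 6.66 CPM with shEVI1-2532. With shEVI1-2531 its log2 ratio to NTC was -0.04 and 0.04, and the fitted log2 fold change was -3.30 (SE 0.19, adjusted p = 2.83e-06 in the edgeR test). *DERA*, the deoxyribose-phosphate aldolase, was 54.1 and 32.6 CPM with shEVI1-2531 and 7.94 and 6.39 CPM with shEVI1-2532. *SOD1*, the cytosolic superoxide dismutase, was 252 and 170.1 CPM and 55.5 and 51.5 CPM, and *PGK1*, a kinase of glycolysis, 1098 and 777 CPM and 289.8 and 279.9 CPM. Of 23 genes of glycolysis and glucose transport *PGK1* was the sole one called, a share of 4.35% against 4.02% of all tested genes called lower, and of 39 nuclear genes of the respiratory chain none was called, with medians of -0.21 and -0.08. Whether the hairpin acts on these transcripts directly was not tested, since its sequence was not used here.

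On the higher side, beside *CFD*, the leading genes included *HPSE*, the heparanase, at 6.46 and 9.50 CPM with shEVI1-2531 and 32.7 and 30.6 CPM with shEVI1-2532, and the dipeptidase *DPEP2* at 6.96 and 8.38 CPM and 24.6 and 27.1 CPM. *FAM174B* and *C19orf38* were also among the leading genes, with fitted log2 fold changes of 1.78 (SE 0.17) and 1.89 (SE 0.14). *RAC2*, the GTPase of the phagocyte oxidase, was 329 and 443 CPM and 858 and 1133 CPM, while *NCF1*, another subunit, was graded. *NCF1* has near-identical pseudogenes, so its level is uncertain. S100 genes cut across the groups, and 5 of 9 (55.6%) were higher, against 4.24% of all tested genes, with a list median of 1.44. Of these, *S100A9* was graded, *S100A12* lay away from NTC with shEVI1-2532 alone and *S100A6* and *S100P* were opposite. *S100A9*, a subunit of calprotectin, was 1275 and 887 CPM with shEVI1-2531 and 3549 and 2632 CPM with shEVI1-2532. All 13 class II presentation genes had fold changes above 0, with a median of 0.76, but *HLA-DQA1* and *HLA-DQB1* alone were called (15.4%, against 4.24% of all tested genes). Relative to NTC, the medians of this list were -0.50 and -0.83 with shEVI1-2531 and 0.18 and -0.16 with shEVI1-2532. The list as a whole thus lay below NTC with shEVI1-2531 and near NTC with shEVI1-2532.

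For 37 genes the departure from NTC lay with shEVI1-2531 alone, although this hairpin lowered *MECOM* less. *MLC1*, a membrane protein known from astrocytes, was 49.4 and 82.8 CPM with NTC, 15.5 and 18.9 CPM with shEVI1-2531 and 48.0 and 62.5 CPM with shEVI1-2532. *HOXA10*, a homeobox factor of progenitors, was 15.9 and 19.7, 8.36 and 7.55, and 19.0 and 18.3 CPM in the same order and was the 1 stem cell gene higher with shEVI1-2532. *NOB1*, an endonuclease of ribosomal RNA maturation, and *MICAL1*, an actin-oxidizing enzyme, also lay below NTC with shEVI1-2531 alone. Above NTC with shEVI1-2531 alone was *CDKN2A*, the gene of the cell cycle inhibitors p16 and ARF, at 42.0 and 46.5 CPM with shEVI1-2531, 17.2 and 20.8 CPM with shEVI1-2532 and 17.9 and 17.1 CPM with NTC. *RBM38*, an RNA-binding protein, and *AEN*, an exonuclease, both known as p53 targets, were -1.36 and -1.07 and -1.22 and -1.19 between the hairpins. The list of 29 p53 targets as a whole gave 2 higher (*ZMAT3* and *TNFRSF10C*) and 1 lower, with a median of 0.14. These shares of 6.90% and 3.45% were near the 4.24% and 4.02% of all tested genes, given the length of the list. *CES1*, a carboxylesterase, and *KREMEN2*, a receptor of Dickkopf proteins, completed these genes, at -1.15 and -1.38 and at -1.31 and -1.24.

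Genes that changed group between the days held some of the largest differences. *MEST*, an imprinted gene of the hydrolase fold family, was 85.2 and 109 CPM with NTC, 125 and 85.9 CPM with shEVI1-2531 and 5.49 and 3.72 CPM with shEVI1-2532. *C3*, the central complement component, was 3.52 and 11.9 CPM with shEVI1-2531 and 23.0 and 169 CPM with shEVI1-2532. *MEST* was thus low with shEVI1-2532 on both days, while *C3* was higher on day 6 than on day 3 with both hairpins. *KIT*, the receptor of stem cell factor, was 34.5 and 19.0 CPM with NTC, 41.2 and 41.5 CPM with shEVI1-2531 and 11.4 and 9.35 CPM with shEVI1-2532. *TAL1*, a helix-loop-helix factor of early blood cells, and *TLX1*, a homeobox factor, were lower, at -2.04 and -2.15 and at -2.44 and -2.04 on the log2 scale, and *TM4SF1*, a tetraspanin-like membrane protein, was higher by 1.97 and 2.22.

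Of 56 interferon-stimulated genes 9 (16.1%) were lower, against 4.02% of all tested genes, with a median of -0.34. The 3 higher ones (5.36%) were near the 4.24% of all tested genes called higher. *IFITM1*, an antiviral membrane protein, was 95.2 and 142 CPM with NTC, 69.8 and 47.2 CPM with shEVI1-2531 and 13.0 and 8.55 CPM with shEVI1-2532. *IFIT1*, which binds foreign RNA, was 10.7 and 3.93 CPM and 2.95 and 0.738 CPM. *GBP5*, a guanylate-binding protein, went the other way at low level, from 0.112 and 0.354 CPM with shEVI1-2531 to 1.26 and 1.42 CPM with shEVI1-2532, and *GBP2* and *HERC5*, named after their values were seen, were the other higher genes. None of 13 genes of the RNA interference machinery was called, nor any of 77 cytosolic ribosomal proteins, whose medians were 0.24 and 0.13 with TMM and 0.13 and 0.02 with library totals.

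Markers of other lineages were counted in the same way. Of 11 megakaryocyte and platelet markers 6 (54.5%) were lower and 1 (9.09%) higher, with a median of -1.34. *PPBP*, the platelet basic protein, was 1.89 and 2.34 CPM with NTC, 22.0 and 12.5 CPM with shEVI1-2531 and 1.60 and 0.823 CPM with shEVI1-2532, and the integrin chain *ITGB3* was 0.628 and 1.19 CPM and 0.0451 and 0.0422 CPM. *ITGA2B*, its partner chain, was called lower too, at 99.0 and 126 CPM with shEVI1-2531 and 32.1 and 55.7 CPM with shEVI1-2532. The higher member, *THBS1*, encodes thrombospondin, which monocytes also make, at 21.9 and 30.7 CPM with shEVI1-2531 and 223 and 110.1 CPM with shEVI1-2532. With it the summed level of the list was 276 and 290.5 CPM with shEVI1-2531 and 378 and 333 CPM with shEVI1-2532. T and NK cell markers gave 2 lower of 10 (*CD2* and *PRF1*), erythroid markers 1 of 3 (*HBD*), B-lineage markers 1 of 8 (*IGHM*), dendritic markers 2 of 12 (*CLEC10A* and *CCR7*) and mast cell, eosinophil and basophil markers 1 of 14 (*SIGLEC8*), and none of these lists had a member called higher. Over all tested genes 4.02% were called lower and 4.24% higher, and in lists this short 1 or 2 calls say little about the members. Their median fitted fold changes had both signs, at 0.24 for T and NK, 0.30 for B-lineage and 0.37 for mast cell, eosinophil and basophil markers. Erythroid and dendritic markers had medians of -0.65 and -0.15. The B cell markers *MS4A1*, *PAX5* and *EBF1* were at 0 counts in all 6 knockdown libraries. The summed level of the T and NK list was 242 and 327 CPM with shEVI1-2531 and 263 and 265 CPM with shEVI1-2532, most of it from *CD4*. The part of such markers in the other results was not tested.

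**Figure D5:**
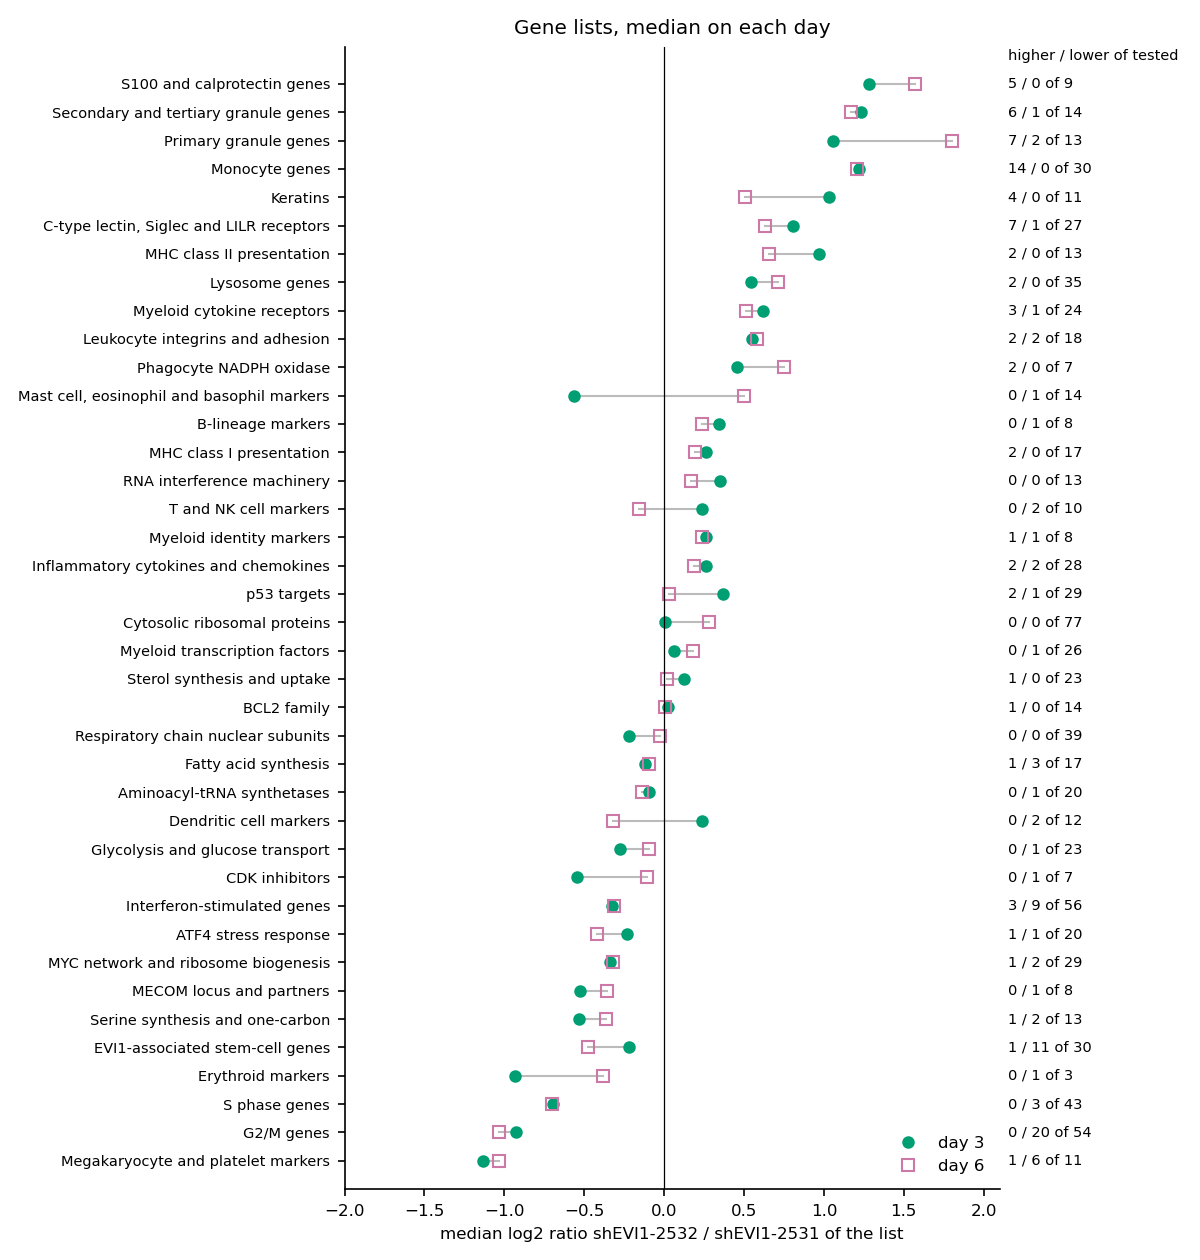
Median log2 ratio of shEVI1-2532 to shEVI1-2531 for each of the 39 gene lists on day 3 (circles) and day 6 (open squares), ordered by the median fitted fold change, with the number of members called higher and lower of those tested at the right. S100, granule and monocyte lists lie highest and the G2/M, S phase and megakaryocyte lists lowest, and the mast cell, eosinophil and basophil list lies on opposite sides of 0 on the days, as do, nearer to 0, the T and NK cell and the dendritic cell lists.

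The graded genes were also read in libraries that took no part in choosing them, from cells given inhibitors of PARP for 48 h. There, 1 µM talazoparib and 10 µM olaparib put *MECOM* at -2.65 and -1.42 on the log2 scale relative to DMSO, with 1 library for each condition and no test. After talazoparib, 16.5% of all tested genes were more than 1 log2 unit higher and 13.4% lower, and after olaparib 11.7% and 6.74%. Of the 178 graded genes higher with shEVI1-2532, 166 (93.3%) were higher after talazoparib and 150 (84.3%) after olaparib. The 138 lower graded genes were lower after talazoparib in 103 cases (74.6%) and after olaparib in 78 (56.5%). Of the genes away from NTC with shEVI1-2532 alone, 80 of 141 (56.7%) of the higher and 96 of 224 (42.9%) of the lower ones lay beyond 1 on the same side after talazoparib, and the difference from the graded genes was not tested. Of the opposite genes higher with shEVI1-2532, 26 of 52 were higher after talazoparib, and of those lower with it 3 of 43 were lower and 15 higher. Among the 18 genes above NTC with shEVI1-2531 alone, 11 (61.1%) were higher after talazoparib and 0 lower. The 19 genes below NTC with shEVI1-2531 alone had 1 lower and 2 higher. Genes that changed group between the days were higher in 200 of 347 cases (57.6%) where higher with shEVI1-2532. Where lower with it, 92 of 274 were lower and 50 higher. Among the granule genes, *ELANE* was at -1.23 and -0.51, *CTSG* at -0.64 and -0.98 and *PRTN3* at -0.48 and -0.70 after talazoparib and olaparib, while *AZU1* was at 0.64 and 0.17 and *RNASE2* at 0.67 and 0.22. *CFD* was at 1.97 and 1.31. *CD34* (-1.95 and -1.48), *PHGDH* (-6.39 and -4.33), *LYZ* (3.51 and 2.49) and *MMP9* (4.57 and 4.24) lay on the same side as in the knockdown with both inhibitors, and *ATP5MD* (0.27 and 0.44) and *MLC1* (-0.58 and -0.36) stayed within 1 log2 unit. At 24 h the shares were 68.5% of the higher and 18.1% of the lower graded genes with talazoparib, against 8.12% and 2.93% of all tested genes. With olaparib at 24 h they were 43.8% and 6.52%, against 5.28% and 1.73%. *MECOM* itself was at -0.67 with talazoparib and at -0.35 with olaparib at 24 h.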

How the data were processed

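RNA from MUTZ-3 cells had been extracted with RNeasy Plus, made into TruSeq Stranded mRNA libraries and sequenced paired-end. The authors deposited per-gene counts and TPM for each library, made with STAR, Picard and featureCounts on hg38 per the submitters' processing notes. The annotation release and the strand setting of the counting are not given in the sources used here, so reads of overlapping genes cannot be told apart. Examples are *MYCN* and MYCNOS, *FADS1*, *FADS2* and *FEN1*, *IFIT1* and *LIPA*, *LRP1* and STAT6, *MEST* and COPG2, and *ATP5MD* and TAF5. The same holds for *IFITM1* and IFITM2, *PGK1* and ATP7A, *HOXA10* and HOXA9, *CDKN2A* and CDKN2B-AS1, and *KREMEN2* and PKMYT1. *LILRB3* and *LILRA6* overlap RPS9, and other named genes also have overlapping genes. The deposited TPM values match the counts divided by the whole gene span and served as a check only. Groups were taken from the sample labels.

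Genes that reached 10 counts in 2 or more of the 4 libraries were tested with edgeR 4.0.16 in R 4.3.3 (quasi-likelihood test, TMM scaling, terms for hairpin and day, Benjamini-Hochberg adjustment). The day pairs the libraries because the labels give it for each, and no biological replicates exist. CPM and log2 ratios per day used TMM over the 6 knockdown libraries and a prior count of 2, and the inhibitor ratios were taken to DMSO of the same hour. Called genes passed an adjusted p of 0.05 with a log2 ratio beyond 1 in the same direction on both days, and the border for groups against NTC was 0.5. Counting intervals are 95% Poisson intervals and cover counting error only. The floor of a library was 3 counts. The p-values set the hairpin difference against a spread taken from how far that difference changed between the days, shared over genes. That spread may be technical, and it is not a spread between replicates.

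Named genes are *MECOM* and its tested neighbours, the 5 genes of each group and direction with the largest smaller-day log2 ratio and a mean log2 CPM above 3, and up to 4 called members of each of 39 gene lists, of which some are not reported here. Others (such as *MPO*, *PLPPR3*, *PTBP1*, *MED16*, *CLC*, *PRG2*, *IL5RA* and *CD4*) were named after their values were seen. The comparison, the lists and the rules were chosen with earlier results of these data known. Alternatives covered DESeq2 1.42.0, its size factors, library totals, no day term, other filters and thresholds, all 6 knockdown libraries and leaving out each library. The fit was tested on simulated data. Plots come from matplotlib 3.10.9 under Python 3.11.15.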

Additional observations from a re-analysis of the deposited data

Results flagged for a closer look

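Of 39 gene lists, 1 had medians beyond 0.25 on opposite sides of 0 on the days. The median log2 ratio of shEVI1-2532 to shEVI1-2531 over 14 tested markers of mast cells, eosinophils and basophils was -0.56 on day 3 and 0.50 on day 6. *CLC*, the Charcot-Leyden crystal protein of eosinophils and basophils and the member with most of the list's counts, was 1843 and 1219.7 CPM with NTC, 4596 and 1950.0 CPM with shEVI1-2531 and 2179 and 2403 CPM with shEVI1-2532. Its level with shEVI1-2531 thus stood above the other libraries on day 3 and between them on day 6. *PRG2*, the eosinophil major basic protein, was at -1.36 and 0.54 and *IL5RA*, a chain of the interleukin-5 receptor, at -1.05 and 0.97. *SIGLEC8* was lower on both days and was the sole member called. The medians of the T and NK cell markers (0.24 and -0.15) and of the dendritic cell markers (0.24 and -0.32) also changed sign, within 0.25 on at least 1 of the days. With 1 library for each hairpin and day, the difference between the days was not tested.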

How the results depend on the processing

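Against 741 higher and 702 lower genes, the counts were 1756 and 1774 with a fold limit of 0.5, 122 and 134 with 2 and 2531 and 2573 at the adjusted p alone. Leaving out each library in turn gave 716 to 1122 higher and 728 to 1070 lower, the upper ends without shEVI1-2531 on day 6, where the fold limit rests on day 3 alone and the lone sample is assumed to vary like the others. DESeq2 called 536 and 509. The fit without the pairing by day, that is with no replicate block, called 520 and 488, and library totals 536 and 887. With a group border of 0.25, 449 genes were graded, 216 opposite, 129 away from NTC with shEVI1-2532 alone, 12 with shEVI1-2531 alone and 14 further with shEVI1-2531. With a border of 1 these were 139, 9, 650, 60 and 3, in the same order. After 24 h of talazoparib in place of 48 h, 68.5% and 18.1% of the graded genes followed, against 93.3% and 74.6%. *MECOM* was at -0.67 relative to DMSO after 24 h of talazoparib and at -2.65 after 48 h. The fold change of *MECOM* lay between -1.99 and -1.42 under all alternatives run, and it passed the test in each. *AC007849.2* turned to -0.019 with library totals, and without single libraries it ranged from -0.29 to 0.53 and *GOLIM4* from -0.16 to 0.47. For the 119 named genes, 1513 of 1537 alternative values kept direction and call, 19 lost the call and 5, all of *AC007849.2* and *GOLIM4*, turned sign. Apart from *MECOM* and its neighbours, the named genes were picked for large differences between the hairpins. They were thus likely to hold under other settings, and the count says little about other genes. Library totals also moved the medians of gene lists, for example from 1.44 to 1.33 for S100 genes and from 0.07 to -0.05 for sterol genes. The pairing changed the call of *CCL24*, *ELOVL6*, *IGHM*, *IFIT1*, *CLEC10A* and *CSF3R*. The cause of these shifts was not tested. Depth limits the scarce transcripts, which include most opposite genes.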

Other observations

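Keratin genes, which are epithelial filament genes, gave 4 higher (36.4%, against 4.24% of all tested genes) and 0 lower of 11 tested, with a median of 0.79. *KRT23* was 0.321 and 0.212 CPM with NTC, 0.864 and 0.609 CPM with shEVI1-2531 and 4.11 and 4.41 CPM with shEVI1-2532, and *KRT16* was 238 and 155, 371 and 477, and 1732 and 1262 CPM in the same order. Of 23 sterol genes *INSIG1*, which holds back the processing of SREBP, was the sole one called, at 138 and 145 CPM with shEVI1-2531 and 784 and 343 CPM with shEVI1-2532. This share of 4.35% was near the 4.24% of all tested genes called higher. Among 24 cytokine receptors the chemokine receptor *CXCR4*, the granulocyte colony-stimulating factor receptor *CSF3R* and *IL6ST* were higher and *KIT* lower, with a median of 0.56. These shares were 12.5% and 4.17%, against 4.24% and 4.02% of all tested genes.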
